A study of Homo sapiens with 9 samples.

Results

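Deoxynucleotide synthesis and salvage was followed through 9 genes, RRM1, RRM2, TYMS, TK1, DUT, DCK, SAMHD1, DCTD and CTPS1, chosen by gene symbol and matched to Ensembl identifiers, out of 58395 genes counted in each library. All 9 were found, and all 9 passed the filter on low counts, as did 16575 genes in all. The counts come from RNA sequencing of MDAMB231 (MDA-MB-231), an established human cell line from a triple-negative breast cancer, grown in DMEM with serum. The cells were reverse-transfected for 96 h with siRNA, a short duplex RNA that directs degradation of a matching mRNA. There were 3 groups of 3 libraries: cells given the second SKP2 siRNA (SKP2-2), cells given the first SKP2 siRNA (SKP2-1), and cells given a nontargeting siRNA (NC). The comparison is thus limited to transient knockdown in 1 cell line with 2 siRNAs, whose sequences are not used here. The question was how the transcriptome differs between knockdown and control cells. SKP2, the target given in the title and on the samples, is the substrate receptor through which an SCF ubiquitin ligase marks p27, a CDK inhibitor, for destruction. The design text instead gives ZIP7 (SLC39A7), which carries zinc out of the endoplasmic reticulum.

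Cells make the deoxynucleotides of DNA chiefly by reducing ribonucleoside diphosphates with ribonucleotide reductase, and add to them by phosphorylating deoxynucleosides taken from outside or from DNA turnover. Thymidine nucleotides need a further step, the methylation of dUMP by thymidylate synthase, whose substrate comes from dUTP and dCMP. In dividing cells several of these enzymes are made mainly around S phase, when E2F factors and the reading of CCAAT boxes by NF-Y raise their transcription, and the pools are kept small at other times, in part by SAMHD1.

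The libraries held 35476410 to 49855113 gene counts, and each of the 9 genes had between 785 and 16092 counts in a library. SKP2 was at 6.09, 5.69 and 6.11 CPM (counts per M gene counts, scaled between libraries) in SKP2-2, 3.51, 3.31 and 3.91 CPM in SKP2-1, and 57.5, 63.8 and 64.9 CPM in NC, so the targeted gene was lower in every knockdown library. SLC39A7 averaged 364 ± 10.3 CPM in SKP2-2, 343 ± 1.07 CPM in SKP2-1 and 342 ± 8.38 CPM in NC (SD, n = 3 each), and neither siRNA's difference from NC passed the test (edgeR's quasi-likelihood test, Benjamini-Hochberg adjusted p = 0.0868 for SKP2-2 and 0.936 for SKP2-1). With library size as the sole scaling, SKP2-2 passed (adjusted p = 0.0138). On the third principal component, with 11.3% of the variance, NC replicate 1 and SKP2-2 replicate 3 lay on one side and NC replicate 3 and SKP2-2 replicate 1 on the other. Nothing in the labels makes the replicates separate cultures. P-values therefore speak for the spread among the libraries at hand, which may be of technical origin. A list of 7 markers of a mesenchymal basal breast line summed to 8397 to 8589 CPM in SKP2-2, 7502 to 7618 CPM in SKP2-1 and 7179 to 7302 CPM in NC. VIM, the highest of them, averaged 2942, 2824 and 2734 CPM in these groups, but AXL was at 1311, 630.4 and 1398 CPM and CAV2 at 86.8, 144 and 131 CPM. A list of 9 luminal markers summed to 657 to 813 CPM in SKP2-2, 644 to 666 CPM in SKP2-1 and 600.4 to 770.5 CPM in NC. Most of that came from the keratins KRT8 and KRT18, while ESR1 and PGR, the hormone receptors the line lacks, stayed under 1 CPM in every library. The luminal marker AGR2 averaged 53.0, 49.7 and 19.4 CPM in SKP2-2, SKP2-1 and NC, and CDH1 3.89, 8.15 and 12.4 CPM. In the same edgeR test, AXL fell with SKP2-1 and CAV2 with SKP2-2, while AGR2 rose and CDH1 fell with both. At an adjusted p under 0.05, 1 of 7 mesenchymal markers fell and 4 rose with SKP2-2, and 2 fell and 4 rose with SKP2-1. Of 7 luminal markers tested, 3 fell and 1 rose with SKP2-2, and 2 fell and 2 rose with SKP2-1. Of all genes, 24.1% fell and 25.2% rose with SKP2-2, and 20.5% and 25.0% with SKP2-1. In bulk RNA, fewer cells in S phase and less RNA per cell cannot be told apart.

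Most of the 9 deoxynucleotide genes were lower with either siRNA. With SKP2-2, 8 of the 9 fell, where 24.1% of all genes tested were called lower, and none rose. The median log2 fold change of the 9 was -0.57, against 0.03 over all genes. With SKP2-1, 7 of the 9 fell, where 20.5% of all genes were called lower, and 1, SAMHD1, rose, where 25.0% were called higher. The median with SKP2-1 was -0.70, against 0.02 over all genes. A gene counted as called when its adjusted p was under 0.05, and 49.4% of genes were called in either direction with SKP2-2 and 45.5% with SKP2-1. The SKP2-2 libraries lay wholly below NC for 7 of the 9, where 26.2% of all genes did so and 53.6% did not overlap in either direction. The SKP2-1 libraries lay wholly below NC for 7 (24.7%) and wholly above for 1 (30.1%; 54.8% in either direction). Lower levels with both siRNAs were found for 7 of the 9 (77.8%) and for 1822 of 16575 genes (11.0%), but both comparisons use the same NC libraries. The counts of the 9 genes called were the same when NC replicate 1 and SKP2-2 replicate 3 were left out together. The summed level of a list of 30 S phase replication genes was lowest in SKP2-1, as were RRM1, RRM2, TYMS and TK1. The others of the 9 averaged lowest in SKP2-2. The S phase sum ranged over 2154 to 2227 CPM in SKP2-2, 1610 to 1652 CPM in SKP2-1 and 3189 to 3204 CPM in NC. Its part in the result was not tested.

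**Figure D1:**
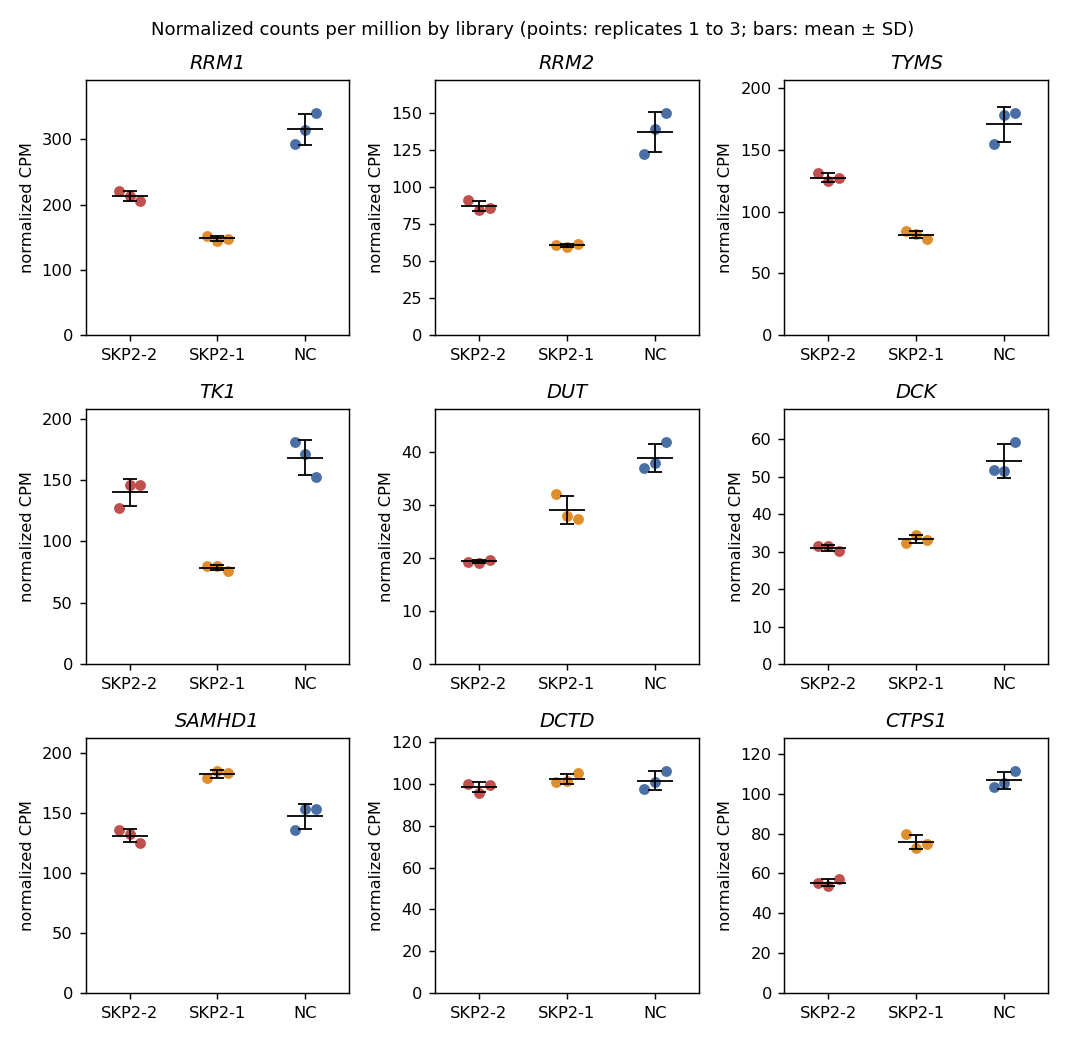
Normalized CPM of each of the 9 genes (y axis, starting at 0) in the 3 groups (x axis); points are the libraries of replicates 1 to 3 and black bars the mean ± SD. RRM1, RRM2, TYMS and TK1 were lowest in SKP2-1, DUT and CTPS1 were lowest in SKP2-2, and DCTD averaged between 98.6 and 102.5 CPM in every group.

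Promoter windows of 5 of the genes are shown because they cover the main patterns: RRM2, TYMS and TK1 were lowest with SKP2-1, DUT was lowest with SKP2-2, and SAMHD1 rose with SKP2-1. Each window is RefSeq sequence of GRCh38.p14, from 250 bases before an annotated start to 50 after it, written 5′ to 3′ on the gene's strand. Capitals mark matches, on either strand, to an E2F site (TTTCCCGC, TTTCGCGC, TTTGGCGC or TTTGCCGC), to a CCAAT box (CCAAT) or to a cell cycle homology region, CHR (TTTGAA), and no match overlaps another in the windows shown. For genes with several annotated starts the window with the most motif matches is printed, and gene counts do not tell which start was used.
RRM2 (chr2:10122489-10122788, + strand): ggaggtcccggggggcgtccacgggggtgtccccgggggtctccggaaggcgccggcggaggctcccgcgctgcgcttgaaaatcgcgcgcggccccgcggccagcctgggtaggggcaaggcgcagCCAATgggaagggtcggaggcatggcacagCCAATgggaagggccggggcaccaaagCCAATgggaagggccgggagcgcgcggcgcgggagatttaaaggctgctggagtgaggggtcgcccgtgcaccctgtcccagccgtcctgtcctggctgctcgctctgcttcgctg
TYMS (chr18:657403-657702, + strand): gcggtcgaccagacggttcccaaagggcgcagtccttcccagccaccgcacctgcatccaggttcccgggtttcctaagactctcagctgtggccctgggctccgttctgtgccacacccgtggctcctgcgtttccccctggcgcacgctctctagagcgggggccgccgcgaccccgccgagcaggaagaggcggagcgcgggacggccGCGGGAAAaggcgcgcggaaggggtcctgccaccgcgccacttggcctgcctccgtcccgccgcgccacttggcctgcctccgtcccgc
TK1 (chr17:78187003-78187302, - strand): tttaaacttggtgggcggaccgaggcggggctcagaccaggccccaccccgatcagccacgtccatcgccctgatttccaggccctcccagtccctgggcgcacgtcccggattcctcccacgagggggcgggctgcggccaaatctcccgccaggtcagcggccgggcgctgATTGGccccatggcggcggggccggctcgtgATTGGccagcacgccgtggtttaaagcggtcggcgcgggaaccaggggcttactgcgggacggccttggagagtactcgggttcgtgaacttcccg
DUT (chr15:48331947-48332246, + strand): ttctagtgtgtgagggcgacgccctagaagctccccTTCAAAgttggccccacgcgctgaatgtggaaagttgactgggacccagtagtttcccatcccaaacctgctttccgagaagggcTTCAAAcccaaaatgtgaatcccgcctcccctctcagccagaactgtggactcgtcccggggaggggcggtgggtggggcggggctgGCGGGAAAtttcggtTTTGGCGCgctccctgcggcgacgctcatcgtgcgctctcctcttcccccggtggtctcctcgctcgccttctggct
SAMHD1 (chr20:36951659-36951958, - strand): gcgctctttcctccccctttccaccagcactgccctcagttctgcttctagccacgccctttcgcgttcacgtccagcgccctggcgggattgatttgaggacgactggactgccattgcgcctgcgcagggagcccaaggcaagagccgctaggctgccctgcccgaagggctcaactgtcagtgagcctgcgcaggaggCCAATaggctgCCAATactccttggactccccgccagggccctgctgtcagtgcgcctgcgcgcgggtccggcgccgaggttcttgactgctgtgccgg

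The RRM2 window held 3 CCAAT boxes, beginning 123, 93 and 66 bases before the start. A second RRM2 window, from another annotated start and not printed, held 1, 249 bases before it. The TK1 window held 2 on the reverse strand, 77 and 46 bases before it. The SAMHD1 window held 2 CCAAT boxes, 49 and 38 bases before its start, and the RRM1 window, not printed, held 1, 28 bases before. The E2F words were in the windows of TYMS, 39 bases before the start, of DUT, 42 and 27 bases before it, and of DCK, 22 bases after it. CHR words were in windows of DUT, 214 and 129 bases before the start, and of RRM1, 199 bases before. Among the 35116 windows of all genes in the table, E2F words were in 3.3%, CCAAT in 34.6% and the CHR word in 15.2%; of the 16 windows of the 9 genes, 3, 5 and 2 held them. By gene, an E2F word was in a window of 3 of the 9 genes, against 4.0% of 27305 genes, CCAAT in 4 of the 9, against 39.7%, and the CHR word in 2 of the 9, against 18.2%. Of the 27 S phase replication genes that had a window, 16 held an E2F word, 16 held CCAAT and none held the CHR word. DCTD and CTPS1 had no match to any of these words in their windows.

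Both subunits of ribonucleotide reductase fell with both siRNAs, and further with SKP2-1 than with SKP2-2. RRM1 (ENSG00000167325; chromosome 11, 4094707 to 4138876, + strand, GRCh38, with 24 exon blocks) encodes the large subunit, which holds the active site and the sites that sense nucleotides. RRM1 was at 220.2, 213 and 206 CPM in SKP2-2, 152, 145 and 148 CPM in SKP2-1, and 293, 314 and 341 CPM in NC. The 3 groups did not overlap, NC being highest and SKP2-1 lowest. The log2 fold change was -0.57 (SE 0.05, adjusted p = 1.78e-06) with SKP2-2 and -1.09 (SE 0.06, adjusted p = 5.07e-09) with SKP2-1, which is 1.48 and 2.13 times lower than NC. SKP2-2 exceeded SKP2-1 by a log2 difference of 0.52 (SE 0.06, adjusted p = 3.92e-06).

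RRM2 (ENSG00000171848; chromosome 2, 10120698 to 10131419, + strand) encodes the small subunit, whose tyrosyl radical drives the reduction and whose protein is destroyed as cells pass through mitosis. RRM2 was at 91.4, 84.8 and 85.8 CPM in SKP2-2, 60.6, 59.4 and 61.8 CPM in SKP2-1, and 123, 139 and 150.0 CPM in NC. As with RRM1, no library of a group entered the range of another. RRM2 fell by 0.65 on the log2 scale with SKP2-2 (SE 0.06, adjusted p = 2.08e-06) and by 1.18 with SKP2-1 (SE 0.06, adjusted p = 1.05e-08). It was higher in SKP2-2 than in SKP2-1 by 0.53 (SE 0.06, adjusted p = 1.62e-05). Per kb of exon, the ratio of RRM2 to RRM1 was 0.322 ± 0.00800 in SKP2-2, 0.321 ± 0.00801 in SKP2-1 and 0.341 ± 0.0102 in NC (SD, n = 3 each). The log2 difference in this ratio from NC was -0.08 for SKP2-2 and -0.09 for SKP2-1, each with a two-sided exact permutation p of 0.1, the smallest that 3 libraries against 3 allow. Between the siRNAs the ratio differed by 0.0034 on the log2 scale (exact permutation p = 1). A predicted protein-coding gene on the same strand, AC007240.1, shares 1077 exon bases (20.2%) with RRM2. It held 384 counts over all libraries, against 37130 for RRM2. Reads in shared bases may be ambiguous and counted for neither gene, so these counts do not measure what the overlap removes.

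TYMS and TK1, for thymidylate synthesis and thymidine salvage, fell with both siRNAs as well, and fell less with SKP2-2. TYMS (ENSG00000176890; chromosome 18, 657604 to 673578, + strand) encodes thymidylate synthase, which makes dTMP from dUMP with a folate cofactor and is the target of 5-fluorouracil. TYMS was at 131, 125 and 127 CPM in SKP2-2, 84.2, 81.8 and 78.2 CPM in SKP2-1, and 154, 178 and 179.9 CPM in NC. The groups were again apart, with SKP2-1 lowest. TYMS changed by a log2 fold of -0.42 with SKP2-2 (SE 0.06, adjusted p = 4.67e-05) and -1.07 with SKP2-1 (SE 0.06, adjusted p = 1.04e-08). SKP2-2 stood 0.65 above SKP2-1 (SE 0.06, adjusted p = 9.10e-07). On the opposite strand, ENOSF1 shares 967 exon bases (39.1%) with TYMS and TYMSOS shares 183 (7.4%), and the strand used in counting is not stated. ENOSF1 averaged 32.5 CPM in SKP2-2, 28.1 CPM in SKP2-1 and 28.4 CPM in NC, and TYMSOS 1.34, 0.401 and 1.38 CPM, so their levels were below that of TYMS in each group.

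TK1 (ENSG00000167900; chromosome 17, 78174075 to 78187233, - strand) encodes cytosolic thymidine kinase, which phosphorylates thymidine and whose serum activity is used as a marker of proliferation. TK1 was at 128, 146 and 146 CPM in SKP2-2, 79.6, 80.3 and 76.1 CPM in SKP2-1, and 181, 171 and 153 CPM in NC. The highest SKP2-2 libraries lay just below the lowest NC library, while SKP2-1 was far below both. TK1 changed by a log2 fold of -0.26 with SKP2-2 (SE 0.07, adjusted p = 0.00572) and -1.10 with SKP2-1 (SE 0.07, adjusted p = 4.53e-08). Between the siRNAs TK1 differed more than any other of the 9, by 0.83 (SE 0.07, adjusted p = 4.70e-07). Among the NC libraries TK1 was highest in replicate 1, the library in which RRM1, RRM2 and TYMS were lowest. Per kb, the ratio of TYMS to TK1 was 0.690 ± 0.0742 in SKP2-2, 0.780 ± 0.0156 in SKP2-1 and 0.771 ± 0.123 in NC (SD, n = 3 each). Exact permutation tests gave p = 0.4 for SKP2-2 against NC, 0.9 for SKP2-1 against NC and 0.3 between the siRNAs.

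The enzymes that supply dUMP to thymidylate synthase behaved differently from each other: DUT fell further with SKP2-2 than with SKP2-1, and DCTD did not pass the test in any comparison. DUT (ENSG00000128951; chromosome 15, 48331011 to 48343373, + strand) encodes dUTPase, which splits dUTP to dUMP and so keeps uracil out of DNA. DUT was at 19.4, 19.2 and 19.7 CPM in SKP2-2, 32.1, 27.9 and 27.3 CPM in SKP2-1, and 37.0, 37.9 and 41.9 CPM in NC. SKP2-2 libraries were tightly grouped and lowest, and the groups did not overlap. The log2 fold change was -1.01 with SKP2-2 (SE 0.07, adjusted p = 1.04e-07) and -0.42 with SKP2-1 (SE 0.07, adjusted p = 0.000272), so the order of the siRNAs was the reverse of that for RRM1, RRM2, TYMS and TK1. The difference between the siRNAs was -0.59 (SE 0.07, adjusted p = 1.55e-05). DUT has 8 annotated pseudogene copies in the table, which together held 71 counts, against 11360 for DUT, and an antisense gene, AC023355.1, that shares 533 exon bases (14.5%) and held 122 counts.

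DCTD (ENSG00000129187; chromosome 4, 182890060 to 182917936, - strand) encodes dCMP deaminase, which turns dCMP into dUMP. DCTD was at 100.3, 95.9 and 99.6 CPM in SKP2-2, 101, 101 and 105 CPM in SKP2-1, and 97.5, 101 and 106 CPM in NC. The NC range took in all SKP2-1 libraries and 2 of the 3 SKP2-2 libraries. Log2 fold changes were -0.04 with SKP2-2 (95% interval -0.14 to 0.05, adjusted p = 0.447) and 0.01 with SKP2-1 (95% interval -0.09 to 0.11, adjusted p = 0.857). It was -0.06 between the siRNAs (95% interval -0.15 to 0.04, adjusted p = 0.324). Without SKP2-2 replicate 1 the comparison of SKP2-2 with NC passed, at -0.10 (adjusted p = 0.0458).

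DCK and CTPS1, on the deoxycytidine and cytidine side of the pathway, fell with both siRNAs. DCK (ENSG00000156136; chromosome 4, 70992538 to 71030914, + strand) encodes deoxycytidine kinase, which starts the salvage of deoxycytidine, deoxyadenosine and deoxyguanosine and activates drugs such as gemcitabine and cytarabine. DCK was at 31.5, 31.4 and 30.0 CPM in SKP2-2, 32.3, 34.4 and 33.0 CPM in SKP2-1, and 51.7, 51.5 and 59.3 CPM in NC. Both sets of knockdown libraries lay far below NC and close to each other. DCK changed by a log2 fold of -0.81 with SKP2-2 (SE 0.06, adjusted p = 1.98e-07) and -0.70 with SKP2-1 (SE 0.06, adjusted p = 7.80e-07). The difference was -0.10 between the siRNAs (95% interval -0.24 to 0.03, adjusted p = 0.189). MOB1B, on the same strand, shares 199 exon bases (6.2%) with DCK and changed by -0.55 with SKP2-2 and 0.18 with SKP2-1.

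CTPS1 (ENSG00000171793; chromosome 1, 40979335 to 41012565, + strand) encodes CTP synthase, which makes CTP from UTP and so feeds the deoxycytidine branch. CTPS1 was at 55.2, 53.7 and 57.2 CPM in SKP2-2, 79.6, 72.6 and 75.0 CPM in SKP2-1, and 103, 105 and 112 CPM in NC. The groups were fully apart and in the same order as for DUT, with SKP2-2 lowest. The log2 fold change was -0.95 with SKP2-2 (SE 0.05, adjusted p = 6.76e-09) and -0.50 with SKP2-1 (SE 0.05, adjusted p = 3.13e-06). The siRNAs differed by -0.45 (SE 0.05, adjusted p = 6.42e-06).

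SAMHD1 was called in opposite directions against NC by the siRNAs, though its call with SKP2-2 was lost under 4 alternatives. SAMHD1 (ENSG00000101347; chromosome 20, 36889773 to 36951901, - strand) encodes a triphosphohydrolase that breaks deoxynucleoside triphosphates down and restricts retroviruses in myeloid cells. SAMHD1 was at 136, 132 and 125 CPM in SKP2-2, 179, 185 and 183 CPM in SKP2-1, and 135, 153 and 153 CPM in NC. All SKP2-1 libraries were above all others, while SKP2-2 replicate 1 lay within the NC range. SAMHD1 fell by 0.17 on the log2 scale with SKP2-2 (SE 0.05, adjusted p = 0.0193) and rose by 0.31 with SKP2-1 (SE 0.05, adjusted p = 0.000358). The siRNAs differed by -0.48 (SE 0.05, adjusted p = 7.30e-06). The call with SKP2-2 was lost with library size as the sole scaling (-0.12, adjusted p = 0.0576), without NC replicate 2 (-0.14, adjusted p = 0.0892), without NC replicate 3 (-0.14, adjusted p = 0.0514) and without SKP2-2 replicate 3 (-0.14, adjusted p = 0.0843). Over all alternatives its adjusted p ran over 0.000614 to 0.0892. Of 9 markers of myeloid and lymphoid cells, 2 were at 0 in every library, MS4A1 among them, and 4 passed the filter. Those 4 all rose with SKP2-2 and 3 of them with SKP2-1, where 25.2% and 25.0% of all genes did. All 9 markers together summed to 7.61 to 8.03 CPM in SKP2-2, 6.96 to 7.44 CPM in SKP2-1 and 4.61 to 4.98 CPM in NC. A list of 5 endothelial markers, of which 2 passed the filter (PECAM1 and KDR) and CDH5 was at 0 in every NC library, summed to 7.94 to 9.50, 15.7 to 17.4 and 7.11 to 8.19 CPM in the same groups. A list of 5 fibroblast markers, of which 3 passed the filter and DCN was at 0 in every SKP2-2 library, summed to 14.1 to 19.1 CPM in SKP2-2, 24.7 to 27.6 CPM in SKP2-1 and 25.4 to 40.3 CPM in NC, so SKP2-2 lay below NC without overlap. The part of these markers in the SAMHD1 values was not tested.

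**Figure D2:**
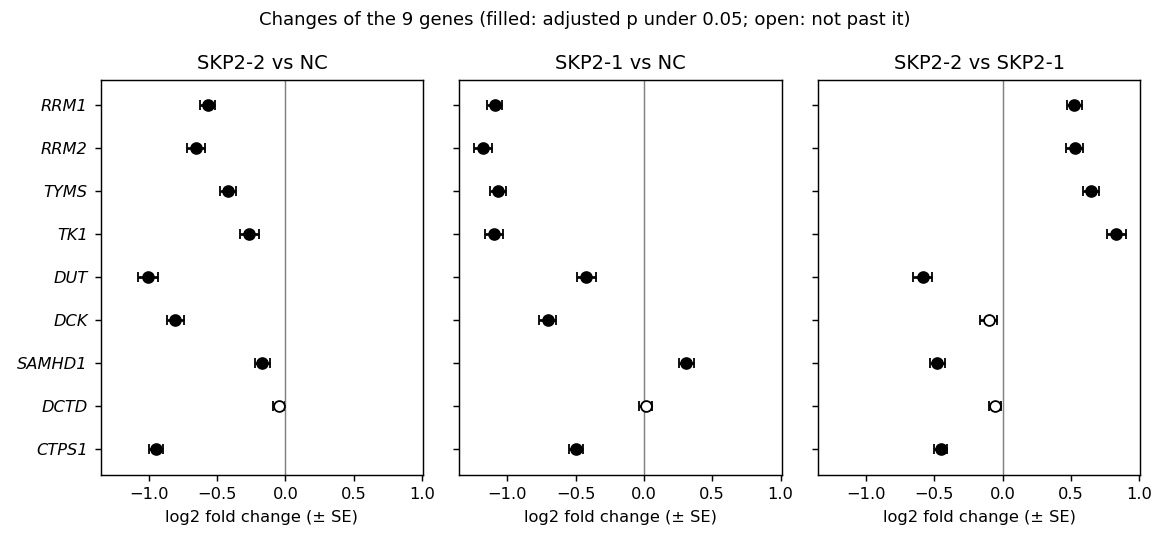
Log2 fold change (x axis) of each of the 9 genes (y axis) for SKP2-2 against NC, SKP2-1 against NC and SKP2-2 against SKP2-1; bars are the SE and filled points passed an adjusted p under 0.05. Against NC, SKP2-1 values of RRM1, RRM2, TYMS and TK1 lie between -1.18 and -1.07, and SKP2-2 values of DUT and CTPS1 at -1.01 and -0.95; SAMHD1 with SKP2-1 is the only filled point right of 0 against NC.

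Set directly against each other, the siRNAs split the 9 genes. In SKP2-2 relative to SKP2-1, 4 were higher (RRM1, RRM2, TYMS and TK1), where 25.2% of all genes were called higher. Lower were 3 (DUT, SAMHD1 and CTPS1), where 25.3% were called lower. DCK and DCTD did not pass, and 50.5% of all genes were called in either direction. The SKP2-2 libraries lay wholly above those of SKP2-1 for the same 4 genes (33.1% of all genes) and wholly below for DUT, DCK, SAMHD1, DCTD and CTPS1 (30.9%; 64.0% in either direction). SKP2 itself was higher in SKP2-2 than in SKP2-1 by a log2 difference of 0.73 (SE 0.08, adjusted p = 6.46e-06). The S phase replication genes went the way of the first 4 genes, with 28 of 30 higher in SKP2-2 than in SKP2-1, none lower, and a median of 0.44, against 0.03 over all genes.

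Levels can be compared between genes only per length, and are given here as CPM per kb of annotated exon. That length joins the exons of all annotated transcripts, and which of them were used was not measured. Bases shared with other genes are included, though reads there may be counted for neither gene. The length was 11.5 kb for CTPS1, 11.3 kb for SAMHD1, 5.32 kb for RRM2, 3.67 kb for DUT and 3.23 kb for DCK. The order depends on it: by CPM alone, CTPS1 averaged 107 in NC, beside 102 for DCTD, 54.2 for DCK and 39.0 for DUT. In NC, TK1 had the highest level at 90.4 ± 7.78 CPM per kb, followed by RRM1 at 75.6 ± 5.75 and TYMS at 69.1 ± 5.73, whose libraries overlapped. DCTD at 29.3 ± 1.29 and RRM2 at 25.8 ± 2.59 CPM per kb came next and also overlapped. Below them stood DCK at 16.8 ± 1.37, SAMHD1 at 13.1 ± 0.899, DUT at 10.6 ± 0.716 and CTPS1 at 9.27 ± 0.368 CPM per kb, each apart from its neighbours (SD, n = 3 each). In SKP2-2 the order was TK1 at 75.3, TYMS at 51.7, RRM1 at 51.0, DCTD at 28.4, RRM2 at 16.4, SAMHD1 at 11.6, DCK at 9.60, DUT at 5.28 and CTPS1 at 4.80 CPM per kb, and only TYMS and RRM1 overlapped. In SKP2-1 it was TK1 at 42.3, RRM1 at 35.5, TYMS at 33.0, DCTD at 29.6, SAMHD1 at 16.2, RRM2 at 11.4, DCK at 10.3, DUT at 7.92 and CTPS1 at 6.58 CPM per kb, with no overlap between neighbours. SAMHD1 thus stood above RRM2 in SKP2-1 and below it in SKP2-2 and NC. The 9 genes summed to 252 to 255 CPM per kb in SKP2-2, 190.2 to 195 in SKP2-1 and 328 to 348 in NC, and TK1 made up 27.2% to 30.9%, 21.5% to 22.4% and 23.6% to 29.7% of that sum in these groups. DCTD made up 10.9% to 11.5% of it in SKP2-2, 14.9% to 15.9% in SKP2-1 and 8.49% to 8.81% in NC.

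**Figure D3:**
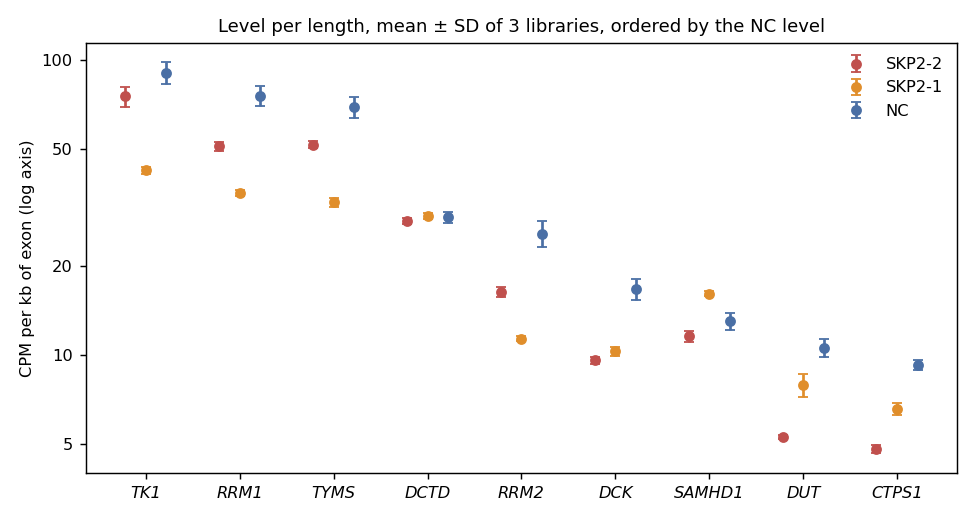
Level of each gene in CPM per kb of exon (y axis, log scale) as mean ± SD of 3 libraries for SKP2-2, SKP2-1 and NC, with genes ordered by their NC level (x axis). TK1 is highest and CTPS1 lowest in all 3 groups; SAMHD1 lies above RRM2 in SKP2-1, at 16.2 against 11.4 CPM per kb.

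Over the 9 libraries, which fall into 3 groups, the log2 CPM of each gene was set beside that of 12117 other genes, and the most similar gene is named as a description with no test. These were LMNB1, a nuclear lamin, for RRM2 (Pearson r = 0.9998), NUSAP1, a mitotic spindle protein, for RRM1 (0.9989), LYPD6 for TYMS (0.9972), NT5DC2 for TK1 (0.9972), SVIL for SAMHD1 (0.9968), SNX5 for CTPS1 (0.9961), PYURF for DUT (0.9960) and KATNAL1 for DCK (0.9959). For DCTD the highest r was 0.9365, with MCCC2, and no gene passed 0.95. The 9 points share 3 groups that lie far apart, and many genes reach such values: 522 genes had an r over 0.95 with RRM1 and 221 with TK1.

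The remaining enzymes of deoxynucleotide metabolism were called at shares near those of all genes. Where 2 log2 fold changes or p-values follow each other, the first is for SKP2-2 and the second for SKP2-1, each against NC. Of 27 tested, 7 fell and 6 rose with SKP2-2, where 24.1% and 25.2% of all genes did. With SKP2-1, 6 fell and 7 rose, where 20.5% and 25.0% of all genes did, and the medians were -0.04 and -0.01. DCTPP1, a dCTP pyrophosphatase, averaged 22.7 ± 0.0895, 29.4 ± 0.413 and 37.1 ± 1.88 CPM in SKP2-2, SKP2-1 and NC and fell with both (log2 fold changes -0.71 and -0.33, adjusted p = 1.74e-07 and 0.000170). NUDT1, which clears oxidised purine nucleotides, fell likewise (-0.49 and -0.62, adjusted p = 3.06e-05 and 4.44e-06). CDA, cytidine deaminase, rose with both, to 28.7 ± 1.72 CPM in SKP2-2 and 34.3 ± 0.701 CPM in SKP2-1, against 14.8 ± 0.759 CPM in NC (0.95 and 1.21, adjusted p = 4.87e-08 and 5.94e-09). A kinase and a reductase subunit that serve mitochondria or non-dividing cells were singled out after their values were seen. Another mitochondrial kinase of the list, DGUOK, did not pass the edgeR test with either siRNA (0.007 and 0.12, adjusted p = 0.921 and 0.0613). TK2, the mitochondrial thymidine kinase, averaged 60.1 ± 3.30 CPM in SKP2-2 and 53.3 ± 0.352 CPM in SKP2-1, against 43.8 ± 3.66 CPM in NC, and rose with both (0.46 and 0.28, adjusted p = 4.54e-05 and 0.00229), opposite to TK1. RRM2B, the p53-inducible small subunit of the reductase, averaged 53.7 ± 2.40 CPM in SKP2-2, 79.2 ± 0.651 CPM in SKP2-1 and 71.0 ± 5.09 CPM in NC, and fell with SKP2-2 (-0.40, adjusted p = 4.72e-05). With SKP2-1 it rose (0.16, adjusted p = 0.0357), a call lost in 12 of 17 alternatives, among them those without NC replicate 1, without NC replicate 2, without SKP2-2 replicate 2 and without any 1 of the SKP2-1 libraries (adjusted p from 0.00732 to 0.155). Without NC replicate 1 it was 0.09.

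Folate enzymes, which supply and recycle the cofactor of TYMS, fell more often than they rose. Of 16 tested, 11 fell and 2 rose with SKP2-2, where 24.1% and 25.2% of all genes did. With SKP2-1, 8 fell and 4 rose, where 20.5% and 25.0% of all genes did. The medians were -0.23 and -0.09. The formate-producing and mitochondrial enzymes MTHFD1L (-0.62 and -0.46, adjusted p = 9.55e-07 and 1.67e-05) and MTHFD2L (-0.54 and -0.58, adjusted p = 1.64e-05 and 1.11e-05) fell with both.

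Of 9 pyrimidine ribonucleotide genes tested, 4 fell and 2 rose with SKP2-2, where 24.1% and 25.2% of all genes did. With SKP2-1, 5 fell and 2 rose, where 20.5% and 25.0% of all genes did. The medians were -0.11 and -0.15. UMPS, which makes UMP, fell by 0.40 and 0.32 (adjusted p = 0.000202 and 0.00128), and UCK2, the main uridine-cytidine kinase of proliferating cells, by 0.81 and 0.20 (adjusted p = 2.26e-08 and 0.00458). DPYD, which degrades uracil and 5-fluorouracil, averaged 70.4 ± 0.463 CPM in SKP2-2, 158 ± 2.01 CPM in SKP2-1 and 134 ± 9.52 CPM in NC, with log2 fold changes of -0.93 and 0.24 (adjusted p = 9.62e-09 and 0.00136). DHODH, the mitochondrial step of UMP synthesis, averaged 11.0 ± 0.586, 6.92 ± 0.367 and 8.39 ± 0.280 CPM, with log2 fold changes of 0.39 and -0.28 (adjusted p = 0.000722 with SKP2-2, and past the threshold with SKP2-1). Of 21 purine genes, 9 fell and 4 rose with SKP2-2, beside the same 24.1% and 25.2% of all genes. With SKP2-1, 11 fell and 3 rose, beside 20.5% and 25.0%. The medians were -0.03 and -0.22. PAICS (-0.34 and -0.37, adjusted p = 0.000120 and 5.40e-05), IMPDH2 (-0.61 and -0.27, adjusted p = 2.11e-07 and 0.000403) and GMPS (-0.27 and -0.66, adjusted p = 0.000846 and 3.63e-07), which act in the synthesis of IMP and GMP, fell with both. ADSS2, of the AMP branch, averaged 39.8 ± 1.53 CPM in SKP2-2, 106 ± 1.03 CPM in SKP2-1 and 89.0 ± 0.466 CPM in NC, lower with SKP2-2 (-1.16, adjusted p = 3.38e-10) and higher with SKP2-1 (0.25, adjusted p = 0.000318).

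Of 7 nucleoside and nucleotide transporters tested, 1 fell and 4 rose with SKP2-2, where 24.1% and 25.2% of all genes did. With SKP2-1, 1 fell and 2 rose, where 20.5% and 25.0% of all genes did. The medians were 0.23 and 0.09. SLC29A3, a nucleoside carrier of lysosomes, rose to 17.7 ± 0.791 CPM in SKP2-2 and 12.1 ± 0.191 CPM in SKP2-1, against 6.13 ± 0.770 CPM in NC (1.54 and 0.98, adjusted p = 1.13e-08 and 9.16e-07). SLC25A36, a mitochondrial pyrimidine nucleotide carrier, rose by 0.23 and 0.30 (adjusted p = 0.00475 and 0.000931). SLC29A1, the main equilibrative nucleoside carrier of the cell surface, averaged 268 ± 7.79 CPM in SKP2-2, 233 ± 8.84 CPM in SKP2-1 and 245 ± 8.11 CPM in NC, and was called higher with SKP2-2 (0.13, adjusted p = 0.0301). That call was lost in 10 of 17 alternatives (adjusted p from 0.00405 to 0.199), among them those without NC replicate 1 or 2, SKP2-1 replicate 2, or SKP2-2 replicate 1 or 2. Without SKP2-2 replicate 1 its log2 change was 0.07, and that of SLC25A36 was 0.15.

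Of 17 known regulators of the pathway's transcription and protein turnover tested, 13 fell with SKP2-2 and 14 with SKP2-1. Among all genes, 24.1% and 20.5% did. None of the regulators rose, and their medians were -0.45 and -0.87. CCNF, whose protein targets RRM2 for destruction, fell to 44.6 ± 3.57 CPM in SKP2-2 and 31.9 ± 0.667 CPM in SKP2-1, against 91.1 ± 4.36 CPM in NC (-1.03 and -1.52, adjusted p = 1.74e-08 and 7.83e-10). CCNA2 and CDK1, the cyclin and kinase of S and G2 phase, fell by 1.05 and 0.62 with SKP2-2 and by 1.31 and 1.26 with SKP2-1 (adjusted p = 1.28e-09 and 3.04e-07, then 3.14e-10 and 6.90e-10). CDC20, a mitotic ligase activator, fell by 1.10 and 1.52 (adjusted p = 4.78e-09 and 4.48e-10). Of the 30 S phase replication genes, 25 fell with SKP2-2 and 29 with SKP2-1, where 24.1% and 20.5% of all genes did. None rose, and the medians were -0.53 and -1.003, beside -0.57 and -0.70 for the 9 genes. MCM7 and MCM2, of the replicative helicase, fell by 0.79 and 0.72 with SKP2-2 and by 1.02 and 0.94 with SKP2-1 (adjusted p = 4.31e-09 and 2.56e-08, then 5.38e-10 and 2.88e-09). CDC6, which loads that helicase, fell by 1.01 and 1.29 (adjusted p = 4.31e-09 and 6.36e-10) and GINS1, a helicase partner, by 1.31 and 1.27 (adjusted p = 1.27e-08 and 1.89e-08).

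**Figure D4:**
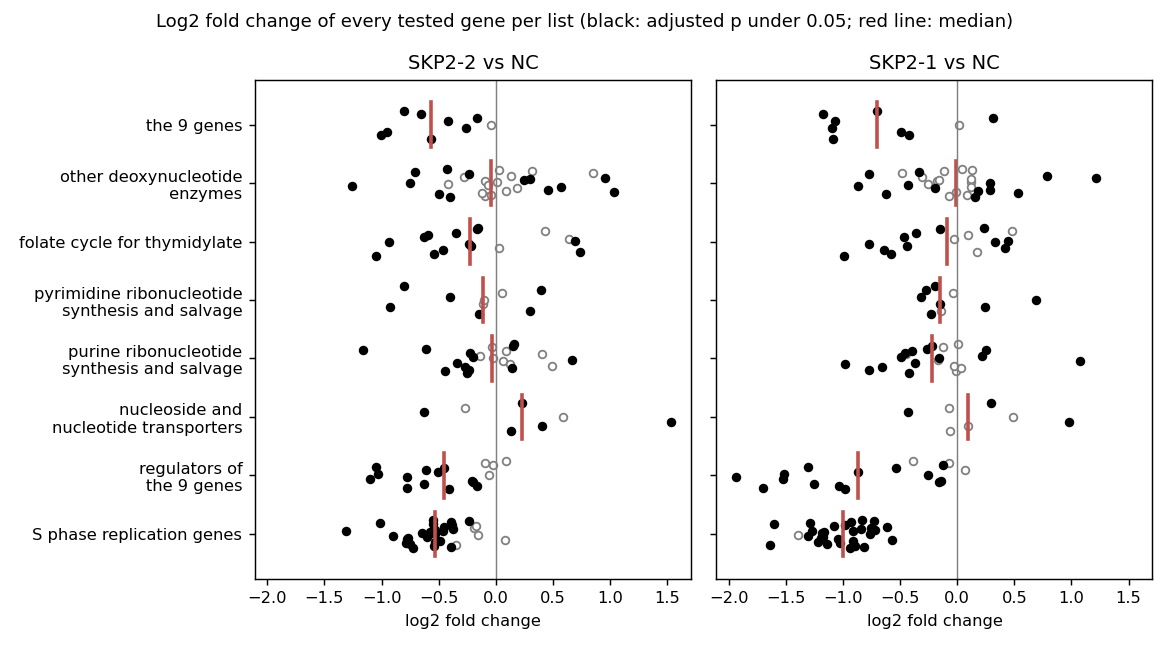
Log2 fold change (x axis) of every tested gene of the 9 genes and of 7 related lists (y axis) for SKP2-2 against NC and SKP2-1 against NC; black points passed an adjusted p under 0.05, open points did not, and red lines are medians. The medians of the 9 genes (-0.57 and -0.70), the regulators (-0.45 and -0.87) and the S phase genes (-0.53 and -1.003) lie left of 0, while the other deoxynucleotide enzymes lie at -0.04 and -0.01.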

How the data were processed

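RNA was isolated with a column kit and DNase treatment, per the labels' protocols. The authors deposited counts of reads for each Ensembl gene, without normalization. STAR, HTSeq 0.6.1, DESeq2 1.16.1, FastQC 0.11.2 and Trim Galore 0.4.1 are the tools that the submitters' processing notes list; the settings, build, annotation and strand are not given in the sources used here. HTSeq's summary lines were left out of library totals: reads outside genes equalled 5.34% to 5.92%, reads ambiguous between genes 3.87% to 3.97% and the line for multiple alignments 0, so reads shared between near-identical copies may be uncounted.

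Of 58395 identifiers, 57754 took a symbol from a supplied name table and 521 from GENCODE 29, which also gave GRCh38 coordinates, overlaps and exon lengths (the union of all annotated exons). Tests used edgeR 4.0.16 in R 4.3.3: filterByExpr (minimum count 10, total 15) left 16575 genes, TMM scaling, a robust quasi-likelihood fit over all 9 libraries with group as the only term, two-sided tests and Benjamini-Hochberg adjustment over all genes tested, with a threshold of 0.05. Levels are TMM-scaled CPM. Ratios were tested by exact permutation. The tests were checked on simulated counts. Promoter windows come from RefSeq.

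From each of 7 pathway lists, up to 4 genes were named by the smallest larger adjusted p over both siRNAs against NC; for each of the 9 genes, the gene of highest Pearson r. Some genes that this rule picked are not reported here. The 9 genes, lists and rules were chosen with earlier results of these data known. Alternatives were RLE scaling, library size only, DESeq2 1.42.0, 1 CPM in 3 libraries or no filter on low counts, a replicate block, fits of only the groups compared, leaving out each library, and leaving out NC replicate 1 with SKP2-2 replicate 3.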

Additional observations from a re-analysis of the deposited data

Results flagged for a closer look

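Genes of the pathway that were called in opposite directions against NC by the siRNAs, and that also differed between the siRNAs in their own test (edgeR's quasi-likelihood test), were SAMHD1 with a log2 difference of -0.48 for SKP2-2 minus SKP2-1, DPYD with -1.17, ADSS2 with -1.41, RRM2B with -0.56 and DHODH with 0.67. SAMHD1, DPYD, ADSS2 and RRM2B were lower with SKP2-2 and higher with SKP2-1, and DHODH the other way round. Over all genes tested, 6.64% were called in opposite directions, against 1 of the 9 genes. Of these calls against NC, that of SAMHD1 with SKP2-2 and that of RRM2B with SKP2-1 were lost under some alternatives; RRM2B was chosen after its values were seen.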

How the results depend on the processing

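Over 17 alternatives the number of the 9 genes called lower ranged from 7 to 9 with SKP2-2 and was 7 in each with SKP2-1, and no call of a named gene reversed its direction. Genes called of all tested ranged from 7190 to 9149 for SKP2-2 against NC, from 6429 to 8755 for SKP2-1 against NC and from 7160 to 9414 between the siRNAs. A fit of the 2 groups compared moved the higher share of calls for SKP2-1 against NC to 44.0%, beside 55.0% in the fit of all libraries. The ratio of RRM2 to RRM1 between SKP2-2 and SKP2-1 changed sign when libraries were left out, over a log2 range of -0.0152 to 0.0242, and that of TYMS to TK1 for SKP2-1 against NC over -0.0975 to 0.136, the lowest without NC replicate 1; the cause was not tested. Of the list counts, 31 moved by over 1.5 times under an alternative and 683 did not; those that moved were counts of 7 or fewer.

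Replicates with the same number did not deviate together: the correlation of their deviations ran from -0.712 to 0.0993, so the numbers are not taken as pairing. Some libraries of unlike number did deviate together. The correlation was 0.716 for NC replicate 1 with SKP2-2 replicate 3, and 0.675 for NC replicate 3 with SKP2-2 replicate 1. A block by replicate number does not account for that. With the replicate block, 7501, 6818 and 7500 genes were called for SKP2-2 against NC, SKP2-1 against NC and SKP2-2 against SKP2-1, the calls of the 9 genes stayed as they were, and the SLC29A1 call with SKP2-2 was lost (adjusted p = 0.0630). The SKP2-1 libraries differed least among themselves; low genes such as DUT rest on 785 to 1982 counts a library.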
